A study of Danio rerio with 18 samples.

Results

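The age comparison described here is between kif7co63/+ zebrafish at 6 weeks post fertilization (6 wpf) and at 4 days post fertilization (4 dpf), across all genes. Its libraries were taken by the genotype and age on their labels and are 5 of the 18 libraries of the series. The 3 libraries at 6 wpf were each made from 1 juvenile fish, and the 2 libraries at 4 dpf were each made from a pool of 20 whole larvae. All 5 carry 1 wild-type allele of kif7 and 1 co63 allele, a small combined deletion and insertion in an exon, made with CRISPR-Cas9 in a line that had been outcrossed to AB, the wild-type strain of the study. The juveniles were genotyped from a clip of the tail fin taken after euthanasia, and their sex is not on the labels. The study set kif7co63/co63 fish with and without scoliosis beside heterozygous and AB fish of the same ages. Poly(A) RNA of whole animals was sequenced, so fewer cells of a type and less RNA per cell cannot be told apart in any result below. Because every 6 wpf library is 1 fish and every 4 dpf library a pool, age and pooling cannot be told apart either. Nothing on the labels says whether the fish or the pools came from separate crosses, and the p-values then measure only the spread between these 5 samples.

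Between these ages a zebrafish changes from a newly hatched larva into a juvenile. The larva lives partly on yolk, swims with larval muscle, has a thin epidermis with an unpaired fin fold, carries embryonic hemoglobins and is held up by a notochord and a mostly cartilaginous skeleton. Metamorphosis replaces these with adult muscle fibres, stratified skin with scales, fins with bony rays, adult hemoglobins, a mineralized skeleton, an adult stripe pattern, lymphocytes and a gonad. Laboratory zebrafish of this age commonly hold an immature ovary with early oocytes, including fish that later become males. Kif7 is a kinesin of the primary cilium that holds Gli transcription factors in check in the Hedgehog pathway, which patterns muscle, nervous system and skeleton in the embryo.

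Reads counted on genes came to between 49434684 and 53862782 in the juveniles and to 48613560 and 44773478 in the pools. The count table lists 31901 genes, of which 27876 had at least 1 read in these libraries and 23445 passed the filter on low counts and were tested. Ranked by read count, the pools correlated at 0.99 across genes (Spearman), the fish with each other at 0.982 to 0.987 and the fish with the pools at 0.835 to 0.847, where genes are not independent replicates. No library of the 5 stood apart from its group. Levels are given as reads and as CPM, reads in 1000000 after scaling by the trimmed mean of M values (TMM), with mean ± SD. Fold changes are log2 of 6 wpf over 4 dpf, so that positive values are higher in the juveniles, with a standard error (SE). The SE was derived from the edgeR test, as the absolute log2 change over the square root of its F statistic. It therefore restates that test. A gene is called where its p from the quasi-likelihood test of edgeR is under 0.05 after adjustment by Benjamini and Hochberg across every gene tested.

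At this threshold 12614 genes were called, 53.8% of those tested, of which 6625 (28.3%) were higher and 5989 (25.5%) lower at 6 wpf. Large rises outnumbered large falls. Among called genes, 1483 were more than 8-fold higher and 246 more than 8-fold lower, and 559 of the risen genes had at most 3 reads in each pool, against 58 of the fallen genes with at most 3 reads in each fish. Tested against a 2-fold change, 2859 genes (12.2%) were higher and 1356 (5.78%) lower. That gap depends on the scaling, with 2391 higher and 2164 lower past 2-fold with library totals alone. With either pool left out both counts were smaller, and rises still outnumbered falls. The values of the fish and the pools did not overlap at 71.7% of tested genes, so absence of overlap alone is common here. At the 20968 genes that reached the count filter at both ages, the shares called were more even, 25.9% higher and 27.6% lower. The split depends on the scaling: with library totals alone the median of all genes moved from a log2 change of 0.01 to -0.25, and 38.0% of the called genes were higher instead of 52.5%. Small shifts of whole groups of abundant genes are therefore read only where they exceed that shift. Counts in the gene lists below are to be set beside the 28.3% higher and 25.5% lower of all genes tested.

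**Figure D1:**
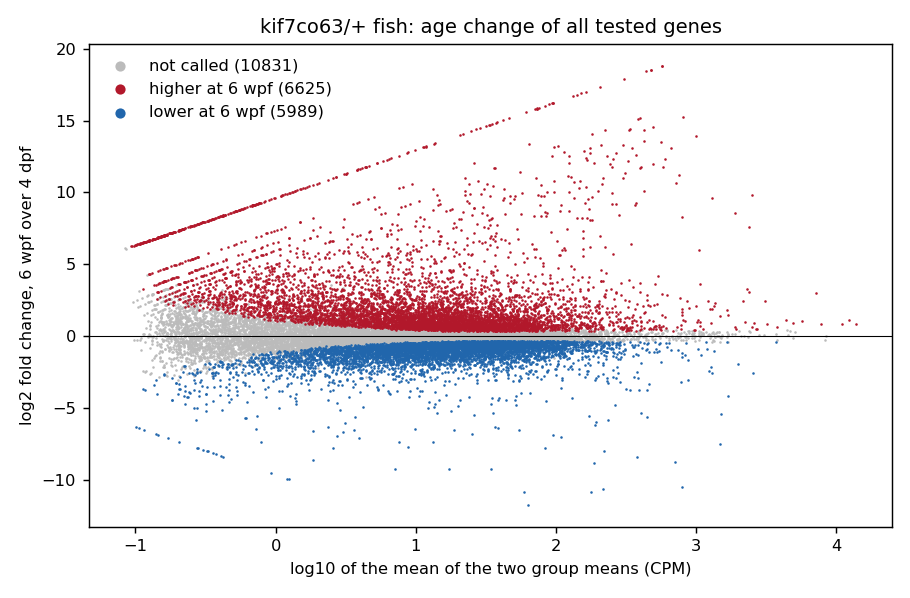
Log2 fold change between juveniles (6 wpf, 3 fish) and larvae (4 dpf, 2 pools of 20) against mean level in CPM (log axis) for the 23445 genes tested in kif7co63/+ zebrafish. Coloured points are the 6625 genes called higher and the 5989 called lower. The upward tail is longer than the downward one, with 1483 called genes more than 8-fold higher and 246 more than 8-fold lower.

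kif7 itself (chr7:14393059-14446512, GRCz11) had 1160, 1179 and 1688 reads in the fish and 813 and 824 in the pools. It was higher in every fish than in both pools, at 27.8 ± 4.97 CPM (SD, n = 3) against 15.8 ± 0.632 CPM (SD, n = 2), a log2 change of 0.82 (SE 0.17, edgeR adjusted p = 0.00401). The gene count takes both alleles together and does not show whether the co63 allele is transcribed less. In AB the age change of kif7 was 1.66 on the log2 scale, and the heterozygous change was different from it by -0.82 (SE 0.22, edgeR interaction test, adjusted p = 0.0258). That call was lost without either heterozygous pool (adjusted p = 0.0713 and 0.0785), heterozygous fish 1 (0.0618), AB pool 2 (0.0720) or AB fish 3 (0.0598), and with all 18 libraries in 1 fit (0.128), at differences of -0.71 to -0.86. The difference from kif7co63/co63 fish was 0.06 (SE 0.33, adjusted p = 0.947).

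Most other Hedgehog genes went the other way from kif7. Of 28 pathway genes in the table, 26 were tested, 14 were lower, 4 higher and 8 not called, with a median log2 change of -0.49. Among ligands, shhb fell from 11.95 ± 0.529 to 2.25 ± 0.558 CPM (log2 -2.41, edgeR adjusted p = 7.41e-05), while ihhb, a ligand of skeletal tissue, rose by 0.88 (adjusted p = 0.0447) and ihha and dhh were not called. shha had 1 to 4 reads in each fish and 5 and 6 in the pools and was not tested. The co-receptor genes cdon (-1.29), boc (-0.91) and gas1a (-0.68), the transducer gene smo (-0.64) and disp2 (-1.66), one of the genes for ligand release, all fell on the log2 scale. gli1, the transcription factor that serves as a target of the pathway, had 1065, 1034 and 1178 reads in the fish and 1044 and 1328 in the pools. Its groups overlapped and it was not called (log2 -0.01, SE 0.15). The 4 genes that rose were kif7, ihhb, stk36 (0.86) and sufu (0.45), of which sufu and stk36 encode regulators that act with the Gli proteins.

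Hemoglobin transcripts changed over from the embryonic to the adult genes. hbaa1, an adult alpha globin gene (chr3:55100045-55100936), had 50156, 83486 and 58740 reads in the fish and 13 and 3 in the pools, and rose by 13.06 on the log2 scale (SE 0.50, edgeR adjusted p = 6.5e-07). Beside it on the chromosome, the embryonic alpha globin gene hbae3 (chr3:55146418-55147788) had 7, 3 and 18 reads in the fish and 23136 and 13742 in the pools (log2 -10.82, SE 0.43, adjusted p = 7.42e-07). All 3 fish were far above both pools for the adult gene and far below both for the embryonic gene, with no overlap. The beta chains did the same: the adult gene hbba1 (ENSDARG00000089087, chr3:55103445-55104310) rose from 0.0951 ± 0.0788 to 1123 ± 269 CPM (log2 13.47, SE 0.48), and the embryonic gene hbbe1.1 (chr3:55114097-55114874) fell from 191 ± 41.5 to 1.601 ± 0.161 CPM (log2 -6.89, SE 0.20, edgeR adjusted p = 2.2e-07). A second gene under the symbol hbba1 (ENSDARG00000097238) had 20697, 20418 and 12458 reads in the fish and 3 and 6 in the pools, and reads shared between such near-identical copies could have been split in counting.

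Of 9 embryonic globin genes, 8 were tested and 7 fell, while hbae5, which lies on another chromosome (chr12:20342451-20353541), rose from 36 and 14 reads in the pools to 134, 230 and 234 in the fish (log2 3.10, SE 0.45). Only 4 of the tested genes reached the count filter at both ages, of which 3 fell and 1 rose. The count of 7 is therefore not read as a result. The embryonic genes summed to 6.16, 8.89 and 9.15 CPM in the fish and to 738 and 497 CPM in the pools. hbbe2 kept the most of its larval level among those that fell, at 0.921 ± 0.292 CPM against 7.16 ± 2.94 CPM. Of the 5 adult globin genes, all had to be high in the fish to pass the filter, none reaching it in the pools, so their count is not read as a result. Within them the fish differed: hbaa2 had 18, 50 and 7 reads and hbba2 26, 76 and 5 reads in the 3 fish, both highest in fish 2 and lowest in fish 3, and hbba2 was not called.

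In muscle, members of the myosin family moved in both directions. The myosin heavy chain gene myha (chr5:32246872-32257316) had 241612, 235472 and 240159 reads in the fish and 290 and 295 in the pools, a rise from 5.64 ± 0.240 to 4976 ± 267 CPM (log2 9.78, SE 0.21, edgeR adjusted p = 1.91e-07). The 3 fish were nearly level at 5276, 4888 and 4764 CPM. myhc4 (chr5:32221755-32233862) rose from 24.7 ± 0.0620 to 4763 ± 1585 CPM (log2 7.59, SE 0.38), with fish 3 the lowest of the fish at 244610, 287894 and 149660 reads in fish order. In the opposite direction went mylpfb (chr12:15002757-15010996), which encodes a regulatory light chain of fast muscle, with 26, 23 and 111 reads in the fish and 91122 and 72886 in the pools (log2 -10.49, SE 0.60, edgeR adjusted p = 3.6e-06).

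Of the 8 fast heavy chain genes tested, 5 rose and 2 fell. Summed, they came to 14467, 14393 and 12176 CPM in the fish and 5974 and 5860 CPM in the pools. The larval fast chains myhz1.1 (ENSDARG00000067990, chromosome 5) and myhz1.2 fell by 1.93 and 1.67 on the log2 scale, whereas a second gene under the symbol myhz1.1 (ENSDARG00000102414, chromosome 22) rose by 1.74 and myhz2 by 0.89. Among 9 slow and cardiac heavy chain genes 5 rose and 3 fell. smyhc1, the slow chain of embryonic muscle, had 800, 663 and 1038 reads in the fish and 6481 and 4854 in the pools (log2 -2.66, SE 0.19), while the 3 genes under the symbol smyhc2 rose by 1.44 to 2.34. Among parvalbumins, calcium buffers of fast muscle and of some neurons, pvalb1 (7875 ± 1129.9 to 16996 ± 2129 CPM), pvalb4 and pvalb7 rose, pvalb8 and pvalb5 fell by 2.82 and 1.61, and pvalb2 was not called. The muscle actin gene actc1b rose by 0.85 (SE 0.15) and acta1b was not called (log2 -0.06, SE 0.16), so the large changes were in isoforms rather than in these actins.

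**Figure D2:**
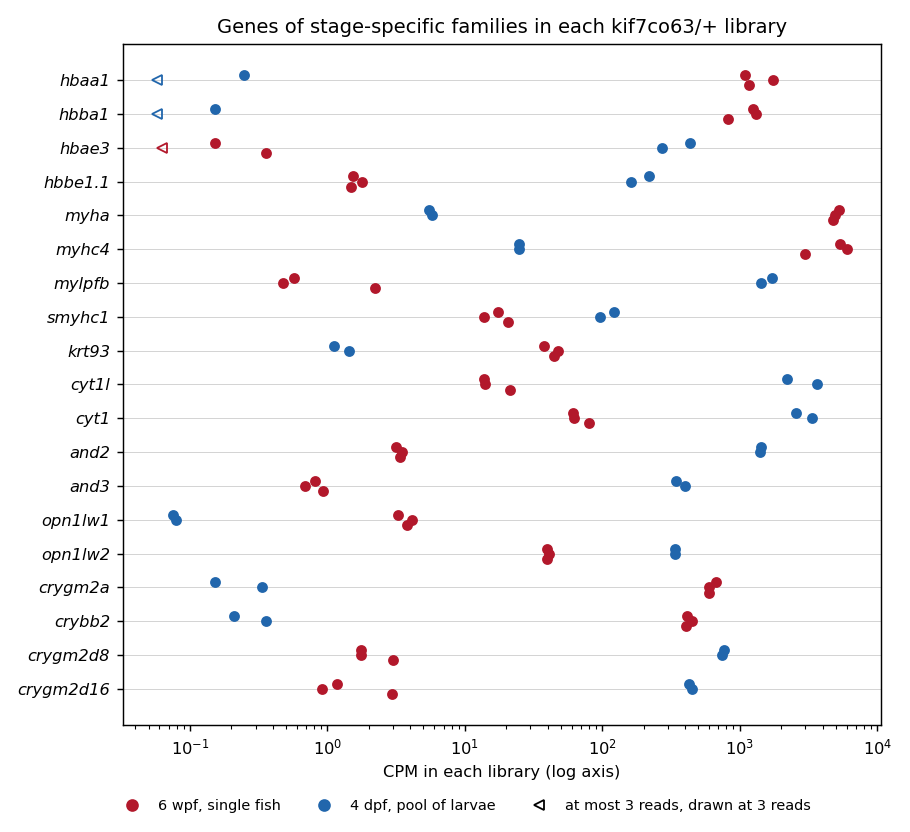
Level in CPM (log axis) of 19 genes in each of the 5 kif7co63/+ libraries, grouped as globins, muscle, skin and fin fold, photoreceptors and lens. Triangles mark libraries with at most 3 reads of the gene, drawn at the level of 3 reads. In each group some genes were higher and others lower in the 3 fish than in the 2 pools, with no overlap. hbaa1 went from 13 and 3 reads to at least 50156 and and2 from at least 71419 reads to at most 169. Genes that rose did not all pass those that fell, and opn1lw2 stayed above opn1lw1 in the fish.

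The fin fold of the larva was among the strongest losses. The actinodin genes encode the structural proteins of actinotrichia, the fine fibres that stiffen the fin fold. and2 (chr2:31762852-31767827) had 145, 167 and 169 reads in the fish and 76271 and 71419 in the pools (log2 -8.74, SE 0.16, edgeR adjusted p = 1.39e-07), and and3 (chr10:22848556-22854758) had 37, 33 and 47 and 18110 and 20418 reads (log2 -8.84, SE 0.20). and1 kept more of its reads, 714, 1005 and 1056 in the fish against 39974 and 42250 in the pools (log2 -5.37, SE 0.18). Both pools were above all 3 fish for each of these genes. The fish had lost a clip of tail fin before extraction, whose part in these values was not tested.

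Keratin genes moved in both directions. Of 19 tested, 7 fell (36.8%) and 6 rose (31.6%), shares close to the 25.5% and 28.3% of all genes, and nothing is read from the count. The larval type I keratins cyt1l (2947 ± 1024 to 16.3 ± 4.26 CPM, log2 -7.49) and cyt1 (2967 ± 559 to 67.7 ± 10.9 CPM, log2 -5.45) fell the furthest, followed by krtt1c19e of the basal epidermis (log2 -4.19) and krt4 of the surface layer (log2 -2.46). Among these krt4 varied most between fish, with 26671, 12691 and 15022 reads against 97664 and 120125 in the pools, still without overlap. krt93 rose from 1.28 ± 0.230 to 43.3 ± 5.33 CPM (log2 5.08, SE 0.21, edgeR adjusted p = 8.14e-07), and krt94, krt15, krt91 and krt8 rose by 2.04, 1.13, 0.83 and 0.60. col17a1a, a collagen of the junction between epidermis and basement membrane, fell from 628 ± 15.8 to 46.1 ± 8.44 CPM (log2 -3.77, SE 0.18), and the basement membrane collagens col4a5 (-3.34) and col4a6 (-3.25) fell with it. Other genes far lower in the fish were aep1 (23492 and 21836 reads in the pools, 19, 11 and 8 in the fish), fut9d, which encodes a fucosyltransferase (6754 and 10385 and 49, 32 and 24 reads), and the unnamed genes si:dkey-35h6.1 (7613 and 5653 and 0, 2 and 3 reads) and si:dkey-239b22.2 (5534 and 6671 and 6, 1 and 2 reads).

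The skeleton changed in opposite directions in cartilage and bone. Of 24 cartilage genes tested, 21 fell, none rose and 3 were not called, with a median log2 change of -2.25. col2a1a, the main fibrillar collagen of cartilage and notochord sheath (chr8:21195420-21219473), had 3515, 4206 and 5287 reads in the fish and 36277 and 29748 in the pools (log2 -2.82, SE 0.17, edgeR adjusted p = 4.58e-06). The type IX collagen genes col9a1a, col9a1b, col9a2 and col9a3 fell by 2.79 to 3.25, the matrilin genes matn1 and matn4 by 2.51 and 2.94, and acana, which encodes the proteoglycan aggrecan, by 2.22. Their transcription factors moved less: sox9b fell by 1.52, sox5 by 1.36 and sox9a and sox6 by 0.61 and 0.60. The members that were not called were hapln1a (-0.30), col11a1b (0.29) and COMP (-0.19), with SE of 0.12 to 0.15.

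Of 30 genes of bone, scale and tooth tested, 22 rose, 1 fell and 7 were not called, with a median of 1.69. Among the 27 that reached the count filter at both ages 20 rose, against 25.9% of such genes overall. The regulators of osteoblasts sp7 (12.6 ± 0.554 to 40.1 ± 2.79 CPM), runx2b and runx2a rose by 1.67, 1.84 and 2.13. The matrix genes moved more: bglapl, an osteocalcin, rose from 15 and 88 reads in the pools to 14151, 14631 and 15056 in the fish (log2 8.24, SE 0.60), spp1, osteopontin, by 4.86 and col10a1b by 8.26. scpp7 and scpp6, of the secretory calcium-binding phosphoproteins of mineralized tissue, were near the floor in larvae, scpp7 with 24 and 10 reads against 57922, 59050 and 49490 and scpp6 with 5 and 0 against 3358, 3932 and 2879. Enzymes of bone resorption rose as well, acp5a from 11 and 4 to 1769, 1790 and 2329 reads and ctsk by 1.23. The one that fell was scpp9 (-1.80). The type I collagen genes col1a1a, col1a1b and col1a2, abundant at both ages, moved by only -0.25 (not called), 0.52 and 0.60.

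The notochord and tendon lists were mixed. cmn, which encodes a matrix protein of the notochord, fell from 2093 and 1776 reads to 24, 20 and 13 (log2 -6.54, SE 0.24, edgeR adjusted p = 5.63e-07), while the notochord transcription factor gene tbxta was not called (0.11, SE 0.26) and cavin4a and cavin4b, also expressed in muscle, rose by 1.02 and 0.50. Of the 11 notochord genes tested 5 fell, 2 rose and 4 were not called. Of 13 elastin and tendon genes 7 rose and 4 fell. The small proteoglycans went both ways, with lum (1.80), prelp (1.02) and dcn (0.66) up and fmoda (-2.94), fmodb (-2.93) and kera (-2.54) down. The tendon regulator scxa and the tendon protein gene tnmd rose by 0.56 and 0.99.

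**Figure D3:**
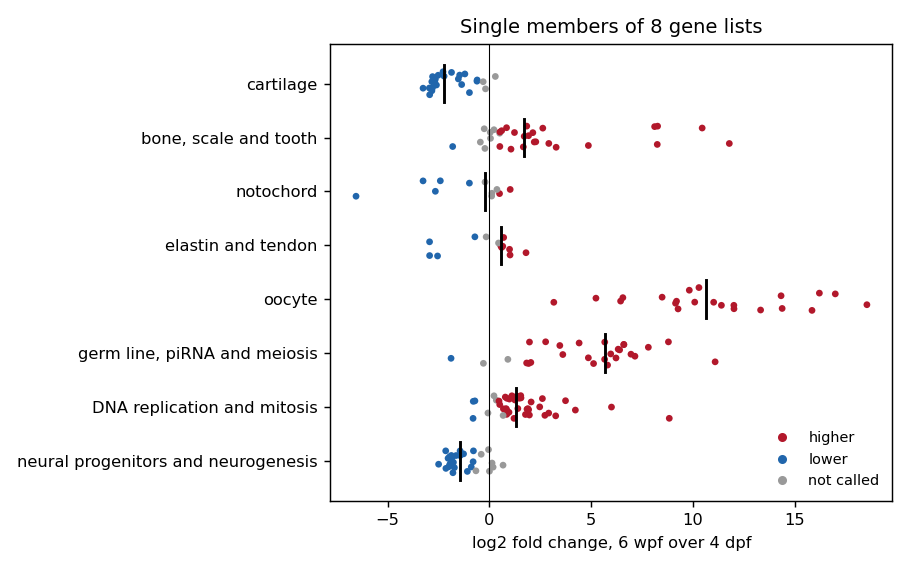
Log2 fold change of the single members of 8 gene lists in kif7co63/+ zebrafish, with the median of each list as a black line. Cartilage and neurogenesis members lie mostly below 0 (medians -2.25 and -1.44), and bone, DNA replication, germ line and oocyte members mostly above it (medians 1.69, 1.33, 5.66 and 10.65). Of the 22 oocyte and 27 germ line genes tested, 7 and 17 reached the count filter at both ages. Both lists also hold members that entered the test through the fish only.

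The programme that forms new neurons was lower in the juveniles. Of 29 genes of neural progenitors and neurogenesis tested, 22 fell, none rose and 7 were not called (median -1.44). The Notch ligand genes dla (1076 and 1217 reads in the pools, 217, 204 and 310 in the fish) and dlb fell by 2.13 and 1.95. Among the Notch target genes her12, her15.1 and her15.2 fell by 2.49, 2.03 and 2.14, the progenitor factor gene sox2 by 1.79, neurod1 by 1.72 and elavl3, a gene of newly formed neurons, by 1.43. The receptor genes notch1a, notch1b and notch3 were not called. All 6 neuron markers taken to check the tissue were present at both ages, and 4 of them were lower in the fish.

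Of 47 Hox genes tested 25 fell and 5 rose. Among the 43 that reached the count filter at both ages 23 fell and 5 rose. Those that rose were the posterior genes hoxc11b (1.18), hoxd11a (1.003), hoxa13b (0.75), hoxd9a (0.59) and hoxc13a (0.55). The anterior genes hoxc1a (-2.01), hoxd3a (-1.86), hoxd4a (-1.76) and hoxc4a (-1.75) were among those that fell. The rest of those that fell are not named here, nor is the gene with the lowest value of the list (-3.48). No pattern by position is therefore read. Of 19 myelin genes 11 rose and 3 fell. The structural proteins of myelin rose, mbpa from 60.0 ± 7.10 to 647 ± 91.9 CPM (log2 3.43, SE 0.19, edgeR adjusted p = 3.02e-06), plp1b by 3.59 and mpz by 2.95, and the 3 that fell, nkx2.2a (-1.90), sox10 (-0.63) and olig2 (-0.57), encode transcription factors of glial precursors.

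In the eye, members of the photoreceptor and lens gene families moved in both directions. Each cone opsin is the light-sensing protein of one cone type, and several have neighbouring duplicates. The green opsin gene opn1mw1 fell from 724 ± 50.04 to 53.6 ± 9.34 CPM (log2 -3.76, SE 0.18), while its neighbours opn1mw2 (519 and 279 reads in the pools, 1656, 1632 and 1918 in the fish) and opn1mw3 (10 and 0 and 551, 679 and 695) rose, and opn1mw4 had 0 reads in both pools and 199, 300 and 243 in the fish, at least 88.7-fold higher. The red opsins did likewise, with opn1lw2 falling from 18054 and 17222 reads to 1800, 1986 and 2004 and opn1lw1 rising from 4 and 4 to 149, 197 and 192. The ultraviolet opsin gene opn1sw1, the blue opsin gene opn1sw2 and the rod opsin gene rho fell by 3.20, 2.18 and 0.92. The 3 fish lay close together at each of these genes and did not overlap the pools. Of the 10 opsin genes tested 7 reached the count filter at both ages, of which 1 rose and 5 fell. Summed, the opsin genes came to 1001, 1014 and 1109 CPM in the fish and 3747 and 4071 CPM in the pools.

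Of 55 crystallin genes tested 26 rose and 23 fell. Among the 43 that reached the count filter at both ages 16 rose and 21 fell. crygm2d8 (ENSDARG00000069817, chr9:22127117-22129839) had 80, 84 and 152 reads in the fish and 41016 and 37601 in the pools (log2 -8.44, SE 0.27, edgeR adjusted p = 3.26e-07), and crygm2d16 had 54, 44 and 148 and 22675 and 22666 reads. crybb2 (chr8:42629748-42636278) had 18938, 21809 and 20334 reads in the fish and 11 and 18 in the pools (log2 10.55, SE 0.27, adjusted p = 2.2e-07). crygm2a, crygm1 and crygm3 rose with it, from at most 25 reads in each pool to at least 13804 in each fish. The gamma M2d crystallins are a family of near-identical copies between which reads could have been split, so the values of single copies are uncertain.

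The largest rises were of genes with no read in the larvae, egg envelope genes among them. The 10 largest rises among genes of at least 100 CPM at one age all had 0 reads in both pools. zgc:173856 (chr24:10018653-10021341) had 51554, 29125 and 86471 reads in the 3 fish, at least 19863-fold above the level of 3 reads per library that serves as the floor. Next to it on chromosome 24 lie si:ch211-146l10.7, zgc:171474 and zgc:171750, with 51165, 28041 and 87157, 39152, 22563 and 78600 and 38280, 23124 and 67032 reads in the fish. In all 4 the third fish was highest and the second lowest. zp3.2 (ENSDARG00000090768), which encodes a protein of the egg envelope, had 35865, 31030 and 72623 reads, at least 16532-fold higher, and si:ch1073-75o15.3 had 25599, 27492 and 35178.

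The table lists 25 oocyte genes. Of these 22 were tested, of which only 7 reached the count filter in the pools. The others were testable only through the fish, so their count says nothing more than that they were present there. The 7 present at both ages had a median log2 change of 6.55. Summed over the list, oocyte genes came to 5925, 4518 and 7915 CPM in the fish and 8.66 and 10.3 CPM in the pools, highest in fish 3 and lowest in fish 2. Single members followed that order in most cases: zar1, required in the early embryo and made in the oocyte, had 16552, 16331 and 24928 reads in the fish and 28 and 10 in the pools, buc, the organizer of the Balbiani body, 20099, 15302 and 25100 and 4 and 0, and h1m, an oocyte linker histone, 21284, 16731 and 32440 and 4 and 8. The 3 genes of the list that were not tested, lhx8b, zp2l1 and zpcx, had at most 8 reads in any library. The 6 ovary markers, of which 3 reached the filter at both ages and 3 entered the test only through the fish, summed to 1318, 1068 and 1803 CPM in the fish and 2.06 and 1.93 CPM in the pools, while the testis markers summed to 20.0, 21.0 and 26.7 and 6.17 and 7.90 CPM.

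Germ line genes that are not particular to oocytes rose too. Of 32 genes of the germ line, piRNA pathway and meiosis 27 were tested, and of the 17 that reached the filter at both ages 15 rose and 1 fell. ddx4 (vasa), an RNA helicase gene of germ cells, had 3712, 2249 and 4549 reads in the fish and 59 and 89 in the pools (log2 5.66, SE 0.37, edgeR adjusted p = 7.96e-06), and the Piwi genes piwil1 and piwil2 rose by 6.39 and 7.15. Genes of meiosis rose less, spo11 by 4.41 and sycp1 by 1.83, and msh5 fell by 1.88 at under 2 CPM. tdrd1 was carried by one fish, with 85, 152 and 2579 reads. Among 21 somatic and steroidogenic genes tested 6 rose (28.6%) and 5 fell (23.8%), shares close to those of all genes. Of the 19 that reached the filter at both ages 4 rose and 5 fell. cyp11a1, the first enzyme of steroid synthesis, had 5207, 4630 and 10417 reads in the fish and 20 and 23 in the pools. The aromatase gene cyp19a1a had at most 3 reads in any library and was not tested. Of the 7 vitellogenin genes, which the liver makes for yolk, none exceeded 46 reads in a fish and the 1 tested, vtg3, was not called.

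Genes of DNA replication and mitosis rose together with these. Of 42 tested 35 rose and 3 fell (median 1.33). Among the 41 that reached the count filter at both ages 34 rose and 3 fell. The largest rises were birc5b (3 and 5 reads in the pools, 1347, 1744 and 2180 in the fish) and the mitotic cyclin genes ccnb2 (175 and 196 and 9335, 7308 and 16625) and ccnb1 (1150 and 1299 and 13254, 9372 and 23330). In ccnb1, ccnb2, ccna2, cdc20 and tpx2 fish 3 was highest and fish 2 lowest, as in the sum of the oocyte genes, and the part of oocyte transcripts in this rise was not tested. pcna, a clamp of DNA polymerase, rose by 0.82 (SE 0.15), while mki67 and top2a were not called and mcm3, mcm6 and cenpf fell by 0.79, 0.71 and 0.80.

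Transcripts of digestive enzymes and liver proteins were mostly higher in the juveniles. Of 20 pancreatic enzyme genes tested 19 rose, with a median of 2.42. Among the 17 that reached the count filter at both ages 16 rose and 1 fell. The trypsin gene prss59.1 rose from 439.8 ± 0.823 to 4202 ± 860.3 CPM (log2 3.26, SE 0.21, edgeR adjusted p = 6.58e-06) and prss1 by 2.41. sycn.1, a syncollin of the zymogen granule, rose from 7 and 5 reads to 2057, 4988 and 1669, while its paralog sycn.3 fell by 2.20. Fish 2 had the highest level of most of these enzymes.

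Of 26 intestinal genes 21 rose and 2 fell (median 2.90). Among the 25 that reached the count filter at both ages 20 rose and 2 fell. The acidic chitinase genes, which encode enzymes that digest chitin, rose in all 6 genes of the list, chia.3 from 213 and 136 reads in the pools to 123060, 125282 and 124722 in the fish (log2 9.59, SE 0.27, edgeR adjusted p = 2.2e-07) and chia.1 and chia.2 by 6.02 and 3.59. The fatty acid binding protein genes parted, fabp1b.2 rising from 31 and 50 reads to 55419, 36843 and 29303 and fabp1b.1 not called (-0.29, SE 0.19). fabp6, which binds bile acids in the ileum, rose by 4.42. agr2 of goblet cells and alpi.1 fell by 0.67 and 0.84.

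Of 41 genes for plasma proteins of the liver 37 rose and none fell (median 1.55). Among the 39 that reached the count filter at both ages 35 rose and none fell. tfa, transferrin, rose from 967 ± 159.7 to 5245 ± 1142 CPM (log2 2.44, SE 0.22). The heme scavenger hpx had 33460, 42774 and 28487 reads in the fish and 80 and 56 in the pools (log2 9.12, SE 0.32, edgeR adjusted p = 4.71e-07), and the fetuin genes ahsg1 and ahsg2 rose by 6.83 and 8.44. The retinol and thyroid hormone carriers rbp4 (-0.40, SE 0.18) and ttr (-0.10, SE 0.18) were not called. Apolipoproteins were mixed, with 9 of 24 higher (37.5%) and 4 lower (16.7%). These shares are not far from the 28.3% and 25.5% of all genes, and nothing is read from the count. apoea, apoa4a and apobb.2 rose by 2.12, 4.32 and 4.45, mttp, needed to load lipid onto lipoproteins and active in yolk absorption, fell by 0.66, and apoa1b was not called (0.41, SE 0.17).

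Transcripts of lymphocytes were higher in the juveniles. cd8a, the co-receptor of cytotoxic T cells, had 0 reads in both pools and 478, 391 and 660 in the fish, at least 182-fold higher, and cd4-1 had 0 reads in the pools and 43, 48 and 29 in the fish. The recombinase genes of lymphocytes were already present in larvae, rag1 rising from 274 and 250 reads to 2175, 2566 and 3485 (log2 3.49, SE 0.20, edgeR adjusted p = 3.98e-06) and rag2 by 2.22. ccr9a, a chemokine receptor gene of thymocytes, rose by 4.32. Of 42 lymphocyte genes 33 were tested, and of the 19 that reached the filter at both ages 14 rose and none fell. The thymic epithelium factor foxn1 was not called (0.24, SE 0.28), with 187, 242 and 280 reads in the fish and 164 and 263 in the pools. Of the immunoglobulin genes, ighz had 54, 33 and 33 reads and ighd 87, 18 and 8 in the fish.

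Genes of antigen presentation rose with them. Of the 18 genes that reached the filter at both ages 16 rose and none fell. The invariant chain gene cd74a rose from 73 and 67 reads to 17306, 19092 and 15621 (log2 8.06, SE 0.22, edgeR adjusted p = 2.2e-07), cd74b by 6.61, and b2m, the light chain of MHC class I, by 6.04. The subunits of the immunoproteasome psmb8a, psmb9a, psmb12 and psmb13a rose by 4.27 to 6.15. mhc1lga went against the list, with 10 and 25 reads in the pools and 0 in every fish. Of 34 genes of neutrophils and macrophages 22 rose and 3 fell. Among the 27 that reached the filter at both ages 15 rose and 3 fell, against 25.9% and 27.6% of such genes overall. mpeg1.2 and mmp13a (ENSDARG00000012395) fell by 3.11 and 4.95, and here the pools themselves differed, with pool 1 and pool 2 at 120.3 and 56.8 CPM of mpeg1.2 and 13.5 and 2.84 CPM of mmp13a. The neutrophil peroxidase gene mpx was not called (-0.43, SE 0.23).

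Pigment genes were mostly lower. Of 43 tested 24 fell and 5 rose (median -0.62). Those that fell included the melanin genes dct (139 ± 10.2 to 17.8 ± 3.77 CPM, log2 -2.97, SE 0.18), tyrp1b (-1.81), tyr (-2.31) and pmela (-2.44), and mitfa (-2.02), the regulator of melanocytes. The genes that rose were scarb1 (2.62), which takes up carotenoids in xanthophores and lipoproteins in liver, asip1 (1.87), which sets the dark back and pale belly, pnp4b (1.58) of iridophores, and the purine and pteridine enzymes xdh (1.298) and gart (1.17).

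Hormone genes were mixed. Of the 20 genes of the growth hormone and IGF axis tested 9 rose, 2 fell and 9 were not called (median 0.33). gh1 had 1865, 2402 and 1512 reads in the fish and 1140 and 1110 in the pools (log2 0.89, SE 0.21, edgeR adjusted p = 0.00662), and leaving out either pool moved its adjusted p above 0.05. igf1, which growth hormone induces in liver, rose by 2.26 and igfals, which carries IGF in plasma, by 3.88. fshb had 0 and 3 reads in the pools and 61, 47 and 15 in the fish, and lhb 6 and 1 and 10, 43 and 15. prl, prolactin, fell from 923 and 440 reads to 97, 62 and 110 (log2 -2.81, SE 0.34). Of 10 pituitary hormone genes tested 3 rose (30%, near the 28.3% of all genes), 1 fell and 6 were not called. Those not called included pomca and tshba. Of the 7 that reached the filter at both ages 1 rose and 1 fell.

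Genes with a bearing on the spine in other zebrafish models were low at both ages. The urotensin gene urp2 had 21, 22 and 40 reads in the fish and 101 and 60 in the pools (log2 -1.43, SE 0.45, edgeR adjusted p = 0.0253). pkd2l1, a channel gene of neurons that contact the cerebrospinal fluid, and pkd1l2a fell by 0.99 and 0.96. uts2d, with at most 2 reads in a fish and 8 and 17 in the pools, was not tested. Of 57 motile cilium genes tested 12 fell and 3 rose, shares under those of all genes, and foxj1b, a master regulator of motile cilia, fell by 1.62.

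Ribosomal protein genes and genes of the mitochondrial genome moved little as groups, while nuclear genes of oxidative phosphorylation were more often lower than higher. Of 84 ribosomal protein genes 7 were called higher and 3 lower, with a median of 0.13 that turned to -0.13 with library totals alone. The 13 protein genes of the mitochondrial genome had a median of 0.09, -0.17 with totals alone, with mt-co1 (0.81), mt-nd6 (0.66) and mt-cyb (0.60) higher and mt-nd3 (-0.91) lower. Of 92 nuclear genes for subunits of oxidative phosphorylation 40 fell (43.5%, against 25.5% of all genes) and 8 rose (median -0.34). With library totals alone 61 fell and 6 rose (median -0.59). One of them, cox6a2, which encodes a muscle form of a cytochrome oxidase subunit, rose from 9.06 ± 0.249 to 172 ± 35.5 CPM (log2 4.25, SE 0.22).

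**Figure D4:**
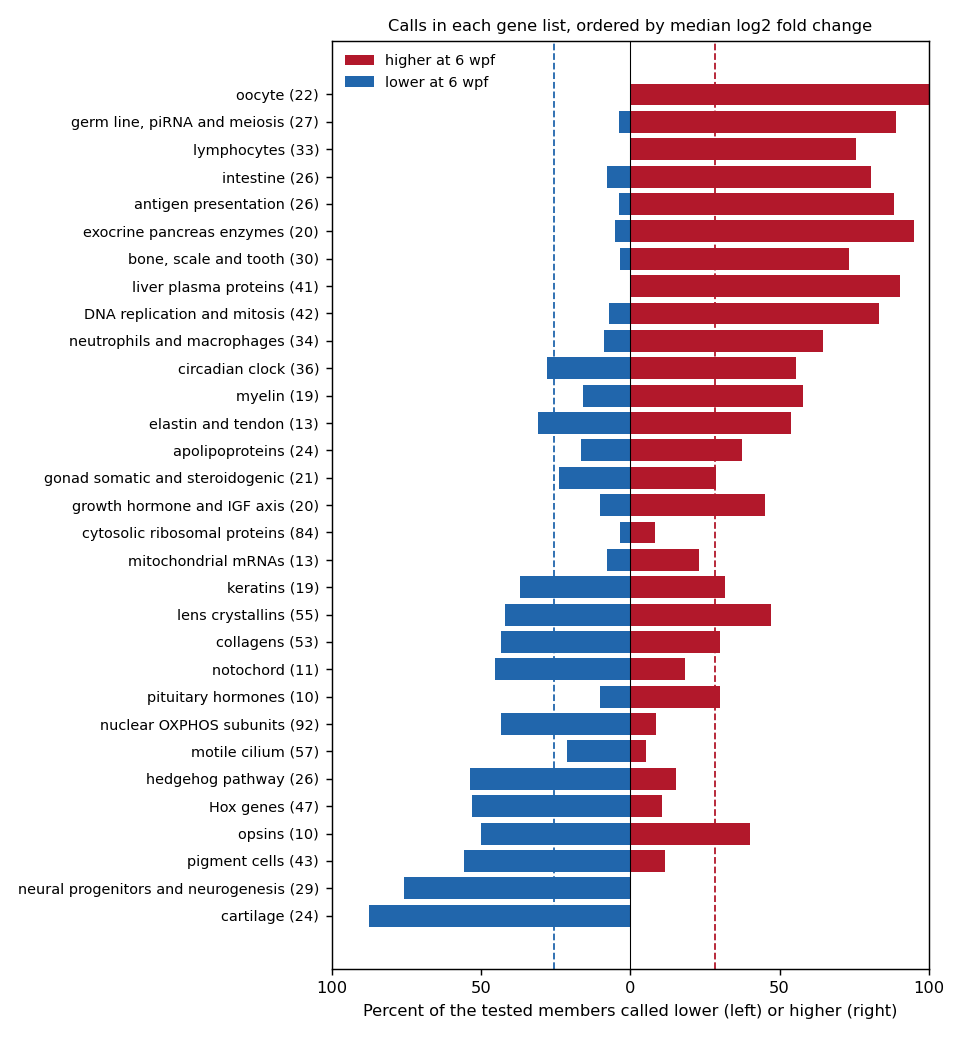
Percent of tested members called higher (right) and lower (left) at 6 wpf in kif7co63/+ zebrafish, for every list with at least 10 tested members. Dashed lines are the shares over all genes tested, 28.3% higher and 25.5% lower. Pancreatic enzymes (95% of members) and liver proteins (90.2%) lie far above the line for rises, and cartilage (87.5%) and neurogenesis (75.9%) far beyond the line for falls. Lists such as those of oocytes, germ line and antigen presentation hold members that entered the test through the fish only. The pancreatic and liver lists also hold members that did not reach the count filter at both ages. Among those that did, 16 of 17 pancreatic and 35 of 39 liver genes were higher.

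Some of the smallest p-values belonged to genes outside these lists. crp2 (ENSDARG00000056462), which encodes a pentraxin, had 21772, 22931 and 28930 reads in the fish and 4 and 6 in the pools (log2 12.33, SE 0.29, edgeR adjusted p = 1.91e-07). zgc:171779 and si:ch211-145c1.1 rose by 11.72 and 8.46, with 14 and 10 and 18 and 15 reads in the pools. In all 3 genes every fish was far above both pools.

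The age change in AB and in kif7co63/co63 fish was measured in the same way, and the genotypes share no libraries. The AB groups were 3 fish at 6 wpf and 2 pools of 20 at 4 dpf, and the kif7co63/co63 groups were 3 scoliotic and 3 non-scoliotic fish and 2 pools. Of the 12395 genes called in heterozygotes and also tested in AB, 8681 (70.0%) were called in the same direction there and 497 (4.01%) in the opposite one. Of 12322 also tested in kif7co63/co63 fish, 5700 (46.3%) and 341 (2.77%) were. Over all genes tested for age there, 13747 of 23474 were called in AB and 8419 of 23361 in kif7co63/co63. The shares in AB and kif7co63/co63 are therefore not compared with each other. The difference itself was tested as an interaction of age and genotype. The heterozygous age change differed from that of AB at 4227 genes (17.4% of those tested) and from that of kif7co63/co63 at 2209 genes (9.1%). These counts depend strongly on single pools: without pool 1 of the heterozygotes they were 2080 and 439, and against kif7co63/co63 the count was 656 without heterozygous pool 2, 1067 and 1278 without heterozygous fish 1 or 3 and 6619 without kif7co63/co63 pool 2.

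Of the 13 globin genes tested in each fit none had an age change that was called different from AB or kif7co63/co63, which does not show that the changes were equal. At an unadjusted p under 0.05 there were 0 against AB and 1 against kif7co63/co63, and DESeq2 called 1 adult globin gene against AB and 0 against kif7co63/co63.

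Several myosin heavy chain genes were called different from AB. The age change differed from that of AB at 5 of 8 fast chain genes, with a median of 1.31 in heterozygotes and -0.48 in AB, and at 6 of 9 slow and cardiac ones, against 17.4% of all genes. myhc4 rose by 4.95 in AB, and its heterozygous change was higher by 2.65 (SE 0.55, edgeR adjusted p = 0.00807). myhz2 changed by -1.55 in AB against 0.89 in heterozygotes (adjusted p = 0.00414). smyhc1 fell by more in AB, at -3.77 (difference 1.12, adjusted p = 0.0117). For myha the difference from AB was 1.02 (adjusted p = 0.0553, not called). These counts are unsteady. With 1 library left out they were 3 to 6 fast genes, lowest without heterozygous pool 1, heterozygous fish 1 or AB pool 1, and 1 to 6 slow and cardiac genes, 1 without heterozygous pool 1 and 2 without heterozygous pool 2 or AB pool 1. With all 18 libraries in 1 fit they were 2 and 4. Against kif7co63/co63 3 slow and cardiac genes were called and no fast one, with 2 fast genes at an unadjusted p under 0.05 and 0 by DESeq2, and the 3 fell to 0 without either heterozygous pool or heterozygous fish 1.

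Cartilage genes fell less in kif7co63/co63 fish in these fits: the list's median age change was -2.25 in heterozygotes, -2.10 in AB and -0.70 in kif7co63/co63, and the heterozygous change differed from that of kif7co63/co63 at 13 of 24 genes and from that of AB at 5 of 24. For col2a1a the age change was -2.82 in heterozygotes, -2.29 in AB and -0.33 in kif7co63/co63 (difference -2.50, SE 0.53, edgeR adjusted p = 0.0165). The kif7co63/co63 pools themselves were apart at this gene, at 681 and 228 CPM, with the fish between 254 and 471 CPM. Most of the calls against kif7co63/co63, that of col2a1a among them, were lost with either heterozygous pool left out, fits with 1 such pool left. The difference at col2a1a was -2.39 without heterozygous pool 1 and -2.61 without pool 2. It moved more with the kif7co63/co63 pools, to -1.92 without their pool 1 and -3.50 without their pool 2. Against AB the count was 3 to 7 when 1 library was left out, 3 without either heterozygous pool, heterozygous fish 1 or AB pool 1.

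Among the gene lists described here, the clock genes had the largest share called different from AB. These genes form the feedback loop of the circadian clock, in which Clock and Bmal drive the per and cry genes whose proteins repress them, and they are expressed in rhythm through the day in most zebrafish tissues. Of 36 tested in heterozygotes 20 rose and 10 fell, with a median of 1.14 against -0.9998 in AB and 0.10 in kif7co63/co63. The age change differed from that of AB at 31 of 36 and from that of kif7co63/co63 at 23 of 36, against 17.4% and 9.1% of all genes. With 1 library left out the counts were 23 to 33 and 18 to 26. Other lists also passed the share of all genes against AB. The age change differed at 16 of 26 intestinal genes, 29 of 55 crystallin genes and 8 of 19 myelin genes. With all 18 libraries in 1 fit, where 1841 genes were called against AB in all, these counts were 9, 7 and 5, and that of the clock genes 28. With 1 library left out they were 15 to 17, 22 to 29 and 4 to 8, myelin at 4 without heterozygous pool 1 and at 5 without pool 2 or fish 1.

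The repressor gene nr1d1 (chr3:23488652-23496223) showed it most. It was at 174, 155 and 159 CPM in the heterozygous fish and 29.3 and 37.4 CPM in their pools (log2 2.29, SE 0.16). In AB it was at 0.944, 0.931 and 1.34 CPM in the fish and 234 and 30.3 CPM in the pools. The heterozygous fish were thus all far above the AB fish, while the heterozygous pools resembled one AB pool and lay below the other. The age change differed by 9.26 (SE 0.94, edgeR adjusted p = 0.000188), and by 7.123 without the AB pool that was high. per1b and per3, which encode repressors of the loop, rose by 3.70 and 3.80 in heterozygotes and changed by -2.41 and -2.02 in AB, and clocka, of the activating arm, by -1.96 and -0.98. The hour at which the fish were sampled is not given in the sources used here, and its part in these differences was not tested.

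**Figure D5:**
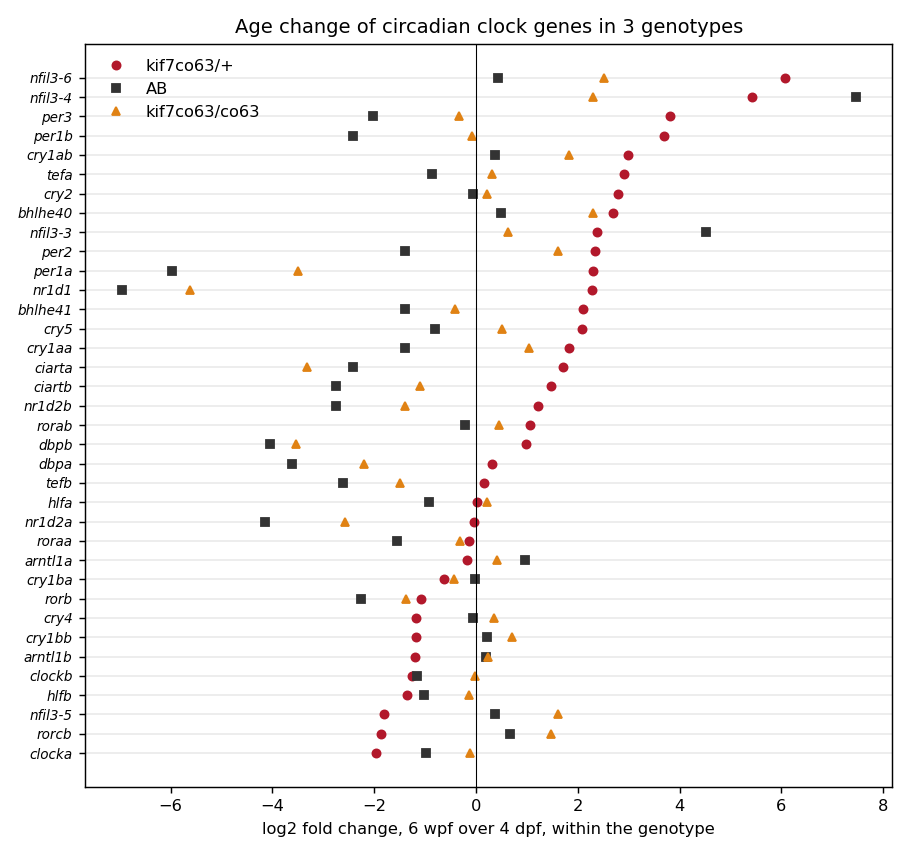
Log2 fold change between 6 wpf and 4 dpf of 36 clock genes in kif7co63/+, AB and kif7co63/co63 zebrafish, each point the change of 1 gene in 1 genotype. The per genes and nr1d1 lie above 0 in kif7co63/+ (per1b at 3.70, per3 at 3.80, nr1d1 at 2.29), and clocka and clockb of the activating arm below it (-1.96 and -1.25).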

How the data were processed

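Poly(A) RNA of whole zebrafish was sequenced by a service provider. The authors deposited raw read counts per gene, after base calling with CASAVA, trimming with fastp, alignment with HISAT2 to GRCz11 and counting with featureCounts per the paper and the submitters' processing notes. The version of the annotation and whether counting used strand are not given in the sources used here, so overlapping and antisense genes cannot be told apart. A second deposited table, whose 18 per-sample columns and fold and p-value columns hold the authors' own comparisons, was not used. Genes were named from the symbols in the count table, many of which belong to more than 1 identifier.

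The 5 kif7co63/+ libraries were fitted on their own with edgeR 4.0.16 in R 4.3.3. Low counts were filtered with filterByExpr (minimum count 10, minimum total 15), libraries were scaled by TMM, and age was tested with the quasi-likelihood test and Benjamini-Hochberg adjustment at 0.05, and against a 2-fold change with glmTreat. Differences between genotypes in the age change were tested as interactions in fits of the 10 heterozygous and AB libraries and of the 13 heterozygous and kif7co63/co63 libraries. The script was tested on simulated data. A group with at most 3 reads in every library was taken as at the floor. Its level was set to 3 reads per library for the at-least folds, while log2 changes and tests used the counts themselves. Counts are counting data, and intervals or floors cover counting error only. With 44773478 to 53862782 reads per library, a gene at the filter, about 0.202 CPM, had about 10 reads.

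The genes named are kif7, the 10 largest changes in each direction of at least 100 CPM, the 5 smallest p-values in each direction, up to 4 members of each list of at least 10 CPM (the most abundant and the most changed), and the 5 largest differences from each other genotype. Other members of the lists, and the keratins, opsins and crystallins drawn by family, were chosen after their values were seen. The comparison and the gene lists were chosen with earlier results of these data known. Alternatives were RLE (DESeq2's size factors), upper quartile and total scaling, DESeq2 1.42.0, other filters, all 18 libraries in 1 fit, a replicate block and leaving out each library.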

Additional observations from a re-analysis of the deposited data

Results flagged for a closer look

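The age change of kif7co63/+ zebrafish differed from that of AB at 4227 genes, 2507 with a positive and 1720 with a negative difference, and from that of kif7co63/co63 at 2209 genes, 1164 positive and 1045 negative, by edgeR's interaction test with Benjamini-Hochberg adjustment. These 2 sets of values share the 5 heterozygous libraries.

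The genes below had the largest differences of those named by rule. nr1d1, a clock repressor gene, had a heterozygous age change higher by 9.26 on the log2 scale than that of AB (edgeR adjusted p = 0.000188) and by 7.89 than that of kif7co63/co63 (adjusted p = 4.16e-05), where the fish lay between 0.468 and 1.37 CPM. fosb, an immediate early gene, was at 328, 414 and 289.9 CPM in the heterozygous fish and 3.49 and 5.75 CPM in their pools, and at 1.76, 1.23 and 1.59 CPM in the AB fish. The differences of its age change were 6.599 from AB and 5.87 from kif7co63/co63 (edgeR adjusted p = 2.25e-05 and 0.000101). Heterozygous fish and pools did not overlap at either gene. nasp, which encodes a histone chaperone, was at 156, 88.5 and 262 CPM in the heterozygous fish, 0.566 and 0.433 in their pools, 8.15, 6.26 and 7.57 in the AB fish and 4.78 and 0.425 in the AB pools. Its differences were 6.96 from AB and 6.28 from kif7co63/co63 (edgeR adjusted p = 0.00149 and 0.0211), and the latter p rose to 0.124 and 0.12 without heterozygous pool 1 or 2 and to 0.0852 without kif7co63/co63 pool 1, where the difference was 4.70. Without AB pool 1 the difference from AB was 4.32.

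The other differences include genes whose pools had few or no reads. zp3c, an egg envelope gene, was lower by -6.97 against AB (adjusted p = 0.00426), with 164, 142 and 142 CPM in the heterozygous and 246, 283 and 274 CPM in the AB fish, but the AB pools had 0 reads and the heterozygous pools 14 and 3, so the size of the fitted difference depends on the prior count, and the call was lost with all 18 libraries in 1 fit (adjusted p = 0.46). The same holds for zgc:153846 (-6.79 against AB, adjusted p = 0.0132), with 8 and 38 reads in the heterozygous pools and 0 in those of AB, a call that was lost without AB pool 1 (adjusted p = 0.0628). It holds too for zgc:171776, fitted at 18.30 against kif7co63/co63 (adjusted p = 0.00752), where without kif7co63/co63 pool 2 the fit gave 14.3 and an adjusted p of 0.999948. zgc:171776 had 7992, 8654 and 11024 reads in the heterozygous fish and at most 0.0852 CPM in any kif7co63/co63 fish, so the fish themselves were far apart. si:ch211-132b12.7 was at 137, 121 and 105 CPM in the heterozygous fish and at most 5.79 CPM in the kif7co63/co63 fish, and its age change differed by 5.89 (edgeR adjusted p = 0.000638).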

How the results depend on the processing

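The count of 12614 called genes lay between 10113 with all 18 libraries in 1 fit and 13562 with library totals, at 12984 by DESeq2 (12450 of them shared), and between 9045 and 12213 with 1 library left out. Genes lower past 2-fold numbered 2164 with library totals against 1356, and 852 to 1338 with 1 library left out. Genes whose age change differed from AB numbered 1841 with all 18 libraries in 1 fit against 4227, and 2080 to 5066 with 1 library left out, lowest without pool 1 of the heterozygotes. Against kif7co63/co63 there were 3786 by DESeq2 and 3331 with all 18 libraries in 1 fit, against 2209. Leaving out 1 library gave 439 to 6619, namely 439 and 656 without heterozygous pool 1 or 2, 1067 and 1278 without heterozygous fish 1 or 3, and 6619 without kif7co63/co63 pool 2. The cause of these changes was not tested beyond the fewer samples in the fit. Every fit takes 1 spread per gene for all its groups, so single fish and pools are assumed to spread alike. With 1 pool left in a group, that pool adds nothing to this estimate.

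The replicate block called 11411 genes, 3682 against AB and 1655 against kif7co63/co63. Deviations of same-numbered fish and pools from their group means correlated at -0.0166 and -0.0787. The deviations of 2 pools mirror each other, so these values cannot show whether the replicate numbers pair the samples. Of 2263 values of 171 single-gene results under the alternatives, 2199 kept their direction and side of the threshold, 55 lost the call, 9 gained it and 0 reversed. With 2 pools, genes under about 10 reads per library could not be tested, and 2 pools of 20 larvae give the larval spread 1 degree of freedom.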

Other observations

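Sorted by the protein domain that the count table gives for each gene, families chosen after their values were seen were uneven in direction. Of 181 genes with a homeobox domain, 111 were lower and 17 higher at 6 wpf in kif7co63/+ zebrafish, with a median log2 change of -1.03. Cadherins (57 of 108 lower, 11 higher), basic helix-loop-helix factors (48 of 101 lower, 18 higher), forkhead factors (30 of 62 lower, 11 higher) and Wnt ligands (12 of 24 lower, 2 higher), families used to pattern embryos and connect cells, were likewise lower more often than the 25.5% of all genes. Higher more often than the 28.3% of all genes were NACHT-domain genes (144 of 326 higher, 18 lower), a large family in fish related to innate immune receptors, cytochrome P450 enzymes (52 of 85 higher, 8 lower), serpins (21 of 32 higher, 3 lower), macroglobulin and complement proteins (27 of 30 higher, 2 lower) and histones (48 of 74 higher, 5 lower, median 2.60). Histone transcripts of the replication-dependent kind mostly lack poly(A) tails, and NACHT genes are many near-identical copies between which reads could have been split. These family counts take every tested member. Any that entered the test through the fish only could be called higher but not lower, and any that entered through the pools only could be called lower but not higher. Shares among members that reached the count filter at both ages were not taken by family, so neither the shares of rises nor those of falls are read as results.

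The 3 fish were close to one another at most genes. At 10002 genes of at least 10 CPM in both groups the highest fish was a median of 1.20 times the lowest, and the higher pool 1.11 times the lower. Only 7 of these genes differed more than 5-fold among the fish and 0 did between the pools. tmsb1, which encodes a beta thymosin, had 8, 5710 and 1598 reads in the 3 fish and 8263 and 6801 in the pools. rpl21, a ribosomal protein gene, had 332, 5442 and 6181 reads in the fish, low in fish 1 alone, and the apolipoprotein gene apoa1a had 1757, 18755 and 1610, high in fish 2 alone. ptgr1, ctsba, pdap1a and rpl39 were the other 4, and none of the 7 was called between the ages.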
